A study of Mus musculus with 4 samples.

Results

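The gene table of the miR-93 podocyte experiment holds 29286 loci, and 379 of them (1.29%) span under 200 bases from start to end. These very short loci were chosen by their length alone, so no measured value entered the choice. They fall into a named set of 214 loci, mostly small RNA genes, and a set of 165 stretches that the authors' transcript assembly placed where the annotation gave no gene name. The cells were mouse podocytes of an immortalised line, kept for 12 days in differentiation medium. They received a miR-93 mimic at 50 nM (2 libraries) or a nontargeting (NT) mimic at 50 nM (2 libraries) with Lipofectamine 2000, and RNA was taken 48 hours later. Both groups therefore share the line, the medium, the transfection reagent and the dose, and an untransfected group was not analysed here. The series set out to find targets of miR-93.

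Cells make many RNAs that are shorter than a typical exon. MicroRNA genes give a short hairpin, which is cut to a mature strand that pairs with messenger RNAs mainly through its seed, the stretch near the 5′ end. Small nucleolar RNAs (snoRNAs) guide the chemical modification of ribosomal RNA, Cajal body RNAs do the same for spliceosomal RNAs, and spliceosomal RNAs remove introns. Y RNAs bind the Ro protein. Most of these RNAs have no poly-A tail, and the libraries were made from poly-A RNA that had been fragmented, so the table is not a small RNA profile.

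Each value is an FPKM, a number of sequenced fragments scaled for the length of the transcript and the size of the library, which the authors' software pooled over both libraries of a group. No value per library was given. The values therefore have no SD, no test between the groups was possible here, and depth is unknown. The only sign of depth is the status that the authors' software gave each row, OK where there were enough reads for its test and NOTEST where there were not. The labels do not say whether the libraries of a group came from separate cultures, and the study calls them biological replicates. A log2 ratio below is log2 of (miR-93 mimic FPKM + 0.1)/(NT mimic FPKM + 0.1), which understates the ratio of low rows. The table names its groups only as q1 and q2. Here q1 was taken to be miR-93 mimic cells, since the study displays both FPKM values of Rps6ka4 under the names of the groups, and every direction below rests on that reading.

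The podocyte label was checked in the full table. Of 9 podocyte markers 7 had an FPKM of at least 1 in both groups, among them Synpo, Actn4 and Nes, and the 9 summed to 484 FPKM with the miR-93 mimic and 498.7 FPKM with the NT mimic. The slit diaphragm gene Nphs1 had 0.164 FPKM with the miR-93 mimic and 0.0387 FPKM with the NT mimic, and the podocyte transcription factor Tcf21 was listed at 0 in both groups. Of 4 mesangial or fibroblast markers 3 passed an FPKM of 1 (summed level 1283 with the miR-93 mimic and 1062 FPKM with the NT mimic, mostly Acta2). Of 3 tubule markers 2 passed, Aqp1 and Lrp2 (summed level 416 with the miR-93 mimic and 388 FPKM with the NT mimic). Of 2 leukocyte markers Cd68 passed (summed level of both 5.26 with the miR-93 mimic and 3.82 FPKM with the NT mimic), and of 3 endothelial markers 0 did (summed level 0.242 with the miR-93 mimic and 0.221 FPKM with the NT mimic).

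The transfected microRNA has close relatives among the very short loci, and their mature strands are shown here because they decide which listed genes share its seed. Sequences are from RefSeq (GRCm38.p6) and were matched by symbol, 5′ to 3′, with bases 2 to 8, the seed, in capitals. The first is the natural strand of the transfected mimic, and the next 3 share its seed.
mmu-miR-93-5p: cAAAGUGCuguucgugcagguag
mmu-miR-17-5p: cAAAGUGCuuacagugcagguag
mmu-miR-20a-5p: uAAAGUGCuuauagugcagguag
mmu-miR-20b-5p: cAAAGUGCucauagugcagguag

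The same clusters also encode strands with other seeds. They are shown in pairs that share a seed, miR-18a with miR-18b, miR-19a with miR-19b and miR-92a with miR-363.
mmu-miR-18a-5p: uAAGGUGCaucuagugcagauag
mmu-miR-18b-5p: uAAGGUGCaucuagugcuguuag
mmu-miR-19a-3p: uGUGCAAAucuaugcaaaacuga
mmu-miR-19b-3p: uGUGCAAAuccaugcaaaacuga
mmu-miR-92a-3p: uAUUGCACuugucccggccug
mmu-miR-363-3p: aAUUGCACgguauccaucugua

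Of the 167 microRNA loci under 200 bases, 142 matched a RefSeq entry, with 256 mature strands. The miR-93-5p seed occurred in 3 of these strands, those of Mir17, Mir20a and Mir20b.

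Nearly all named short loci were listed at 0. Of the 214 named loci 206 had 0 FPKM in both groups and the status NOTEST, and 8 (3.74%) had the status OK. All 165 loci without a name had the status OK. The 173 short loci with values (45.6% of 379) were thus chiefly unnamed stretches, whereas 57.9% of the 29286 rows of the full table had the status OK. No short locus had the status FAIL or HIDATA, the statuses for rows that the software could not fit or that held too many reads. An assembled stretch needs reads to be listed at all and an annotated gene does not, so the status of an unnamed locus is not independent of how it came into the table.

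**Figure D1:**
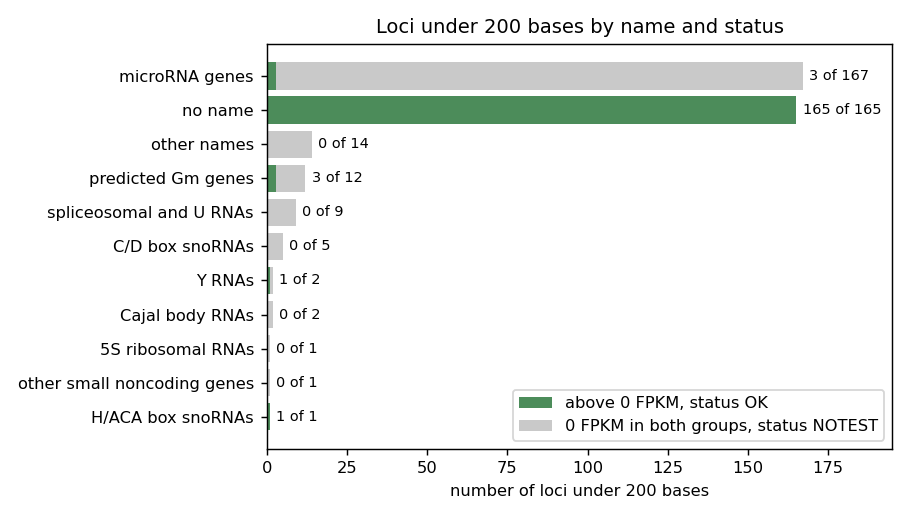
Number of loci under 200 bases (horizontal axis) in each class of name (vertical axis), with loci above 0 FPKM and status OK in green and loci at 0 in both groups in grey. The label beside each bar gives the number with status OK of the number listed, 3 of 167 for microRNA genes and 165 of 165 for loci with no name.

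The miR-17 family, to which miR-93 belongs, was listed at 0 wherever it had a row of its own. Of 17 gene names listed for the family's 3 clusters, which include older and newer names of the same gene, 9 were loci under 200 bases. Mir17, Mir18, Mir19a and Mir20a lie within a short stretch of chromosome 14 (chr14:115442892-115443485, mm9), and all 4 had 0 FPKM in both groups. Mir363, Mir92-2, Mir19b-2, Mir20b and Mir18b lie side by side on the X chromosome (chrX:50094869-50095590), and all 5 were at 0 in both groups. The longer row that continues the chromosome 14 cluster, Mir19b-1 with its host transcript Mirhg1, had 0.302 FPKM with the miR-93 mimic and 0.299 FPKM with the NT mimic. The row Kis2,Mir106a, which continues the X chromosome cluster, was at 0 in both groups. Mir93, Mir25 and Mir106b were listed with the coordinates of their host gene Mcm7 (chr5:138605816-138613090), so they are not among the short loci, and all 3 were at 0. Mcm7, a subunit of the helicase that unwinds DNA for replication, had 5.61 FPKM with the miR-93 mimic and 6.41 FPKM with the NT mimic (log2 ratio −0.19). A mature microRNA is too short to be measured in such libraries, so the table does not show the transfected mimic itself.

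MicroRNA loci studied in podocytes and kidney disease were likewise at 0. From a list of 30 names and the let-7 family, 14 were loci under 200 bases, and all 14 were at 0 in both groups. They include Mir30a, Mir30b and Mir30d of the miR-30 family, Mir29a and Mir29b-1, Mir192, Mir193, Mir200c, Mir216a, Mir217, Mir145, Mir143 and Mirlet7c-1. The X chromosome held 35 short microRNA loci, the most of any chromosome, and chromosome 12 held 34, of which 32 form 1 cluster (chr12:110810199-110973184). All 69 of these were at 0 in both groups.

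The other structural RNA genes gave the same picture. The 9 loci named for U RNAs were at 0 in both groups: Rnu1a1, Rnu1b1, Rnu1b6, Rnu2, Rnu5g and Rnu6 of the major spliceosome, Rnu11 and Rnu12 of the minor spliceosome, and Rnu3a, a snoRNA that acts in ribosomal RNA processing. The 5 C/D box snoRNAs (Snord13, Snord64, Snord104, Snord116l2 and Snord118), the Cajal body RNAs Scarna2 and Scarna17, the 5S ribosomal RNA gene Rn5s, Rn4.5s and the neuronal transcript Bc1 were also at 0. So were 9 of 12 predicted Gm genes and 13 loci with LOC names. A value of 0 in this table does not say that the RNA is missing from the cells, and the fragments behind it are not given.

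The 8 named loci with values were 3 microRNA genes, 3 predicted genes, 1 H/ACA box snoRNA and 1 Y RNA. No transcript named Mir715 or Gm7226 was found in GENCODE M21, so only the other 6 could be compared. Each of these shares sequence with another annotated gene, by an exact match of at least 40 bases to GENCODE M21 transcripts. How the authors' counting divided reads between such partners is not given in the sources used here, so these values are uncertain.

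Mir682 had the highest level of any named short locus. Its row (XLOC_006366, chr13:75782493-75782589) had 3422 FPKM with the miR-93 mimic and 2886 FPKM with the NT mimic (log2 ratio 0.25). Its annotated mature strand begins with a seed unlike that of miR-93.
mmu-miR-682: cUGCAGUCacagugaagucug

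All 96 bases of the Mir682 hairpin match Gm4149, which has no row, and runs of 51 bases match Gm14173 and Gm22758. Shorter runs match further Gm genes and Rpl37a, which encodes a protein of the large ribosomal subunit. The hairpin is shown next, with the 48 bases that are identical to a run in transcripts of Rpl37a in capitals.
Mir682 hairpin: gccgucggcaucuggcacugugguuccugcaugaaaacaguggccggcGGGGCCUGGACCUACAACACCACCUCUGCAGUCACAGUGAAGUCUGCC

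The run contains the annotated mature strand. Rpl37a itself had 46.5 FPKM with the miR-93 mimic and 54.4 FPKM with the NT mimic (log2 ratio −0.23). FPKM divides by length, so the higher FPKM of Mir682 than of Rpl37a does not rank the RNAs by abundance.

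Snora15 was the single short locus above 0 in both groups that was at least 2-fold higher with the miR-93 mimic. This H/ACA box snoRNA (XLOC_019495, chr5:130300436-130300552) had 18.2 FPKM with the miR-93 mimic and 8.75 FPKM with the NT mimic, which is 2.08-fold higher (log2 ratio 1.05). The row spans 116 bases, which is shorter than the 131 bases of the GENCODE M21 sequence shown next. That sequence ends in the ACA box for which the class is named, in capitals.
Snora15: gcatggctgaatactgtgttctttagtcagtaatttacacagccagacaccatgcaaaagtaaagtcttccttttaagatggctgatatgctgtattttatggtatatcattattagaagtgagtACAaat

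The row lies 60 bases from that of Cct6a, a subunit of the chaperonin that folds actin and tubulin, and 102 bases of the snoRNA run unbroken in a Cct6a transcript. Cct6a had 114 FPKM with the miR-93 mimic and 119 FPKM with the NT mimic (log2 ratio −0.07), so the snoRNA row and its neighbour gave unlike ratios. Without values per library, the spread behind the Snora15 ratio is unknown.

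Rny1 and Mir760 had values only with the NT mimic. Rny1 (XLOC_021414, chr6:47738068-47738179), a Y RNA, was listed at 0 with the miR-93 mimic and had 14.9 FPKM with the NT mimic. It shares a run of 61 bases with Gm26168, which has no row. The other Y RNA, Rny3, was at 0 in both groups. The sequences of both (GENCODE M21) are shown because the first had a value above 0 and the second did not. Capitals mark the longest run that they share, of 12 bases.
Rny1: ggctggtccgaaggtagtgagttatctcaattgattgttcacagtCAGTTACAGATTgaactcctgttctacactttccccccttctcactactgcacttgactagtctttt
Rny3: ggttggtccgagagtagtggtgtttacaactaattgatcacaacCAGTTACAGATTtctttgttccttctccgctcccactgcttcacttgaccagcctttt

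Mir760 (XLOC_016873, chr3:121996502-121996621) was listed at 0 with the miR-93 mimic and had 7.53 FPKM with the NT mimic. All of its 119 bases match Gm17494, which has no row. Mir760 lies 35 bases from the row of Gclm, the regulatory subunit of the enzyme that starts glutathione synthesis, which had 50.4 FPKM with the miR-93 mimic and 55.3 FPKM with the NT mimic. No fold is given for either row, since the table holds no count from which a lower limit could be set.
mmu-miR-760-3p: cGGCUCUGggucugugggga

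Mir715 (XLOC_010713, chr17:39981080-39981190) had 176 FPKM with the miR-93 mimic and 130 FPKM with the NT mimic (log2 ratio 0.44). It lies 2108 bases from the row Rn18s, the 18S ribosomal RNA, which had 388 FPKM with the miR-93 mimic and 392 FPKM with the NT mimic. No transcript named Mir715 was found to compare. The 3 predicted genes were low. Gm8069 had 17.6 FPKM with the miR-93 mimic and 22.8 FPKM with the NT mimic (log2 ratio −0.37), and it shares a run of 101 bases with Tomm5, a subunit of the mitochondrial import pore, which had 22.1 FPKM with the miR-93 mimic and 31.5 FPKM with the NT mimic (log2 ratio −0.51). Gm7226 had 4.52 FPKM with the miR-93 mimic and 2.88 FPKM with the NT mimic (log2 ratio 0.63), and no transcript of that name was found to compare. Gm3787 had 1.85 FPKM with the miR-93 mimic and was listed at 0 with the NT mimic. It shares a run of 55 bases with Tmsb10, an actin-binding thymosin, which had 247 FPKM with the miR-93 mimic and 263 FPKM with the NT mimic.

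**Figure D2:**
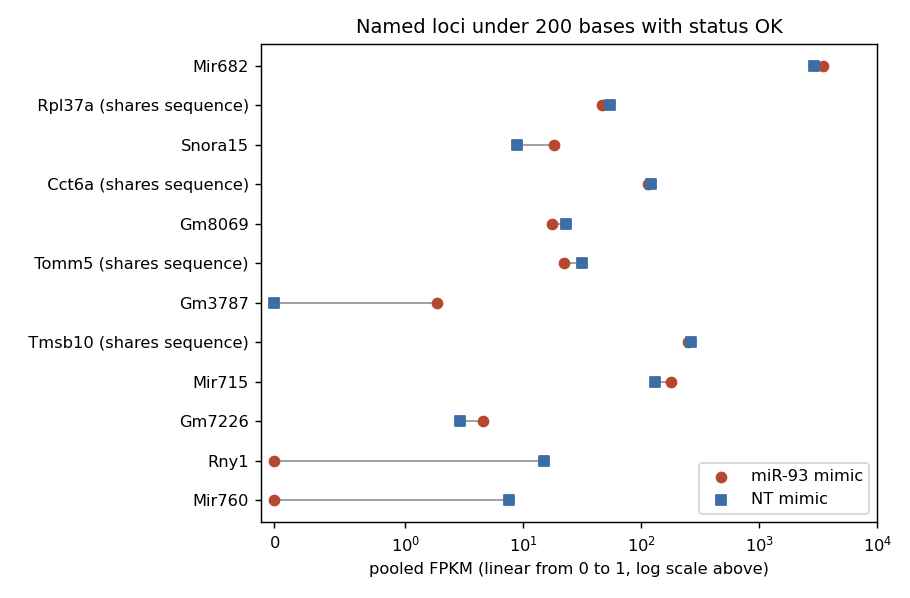
Pooled FPKM (horizontal axis, linear to 1 and log scale above) of the 8 named loci under 200 bases with status OK and of 4 genes that share sequence with them, in cells with the miR-93 mimic (red circles) or the NT mimic (blue squares), joined by a line. Rny1 and Mir760 lie at 0 with the miR-93 mimic and Gm3787 at 0 with the NT mimic, while Cct6a has 114 FPKM with the miR-93 mimic and 119 FPKM with the NT mimic.

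The short loci held the highest FPKM values of the whole table. Their median level (mean of both groups) was 39.2 FPKM over the 173 loci with status OK, against 5.47 FPKM over all 16953 rows with status OK. A level of at least 1000 FPKM was reached by 26 short loci (15.03% of 173) and by 55 rows in all (0.324% of 16953). The 11 rows at 10000 FPKM or more were all short loci without a name, and the longest of them spans 148 bases.

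The highest value belonged to the shortest locus with status OK. The locus XLOC_024536 spans 71 bases on chromosome 7 (chr7:118165303-118165374), 7090 bases from the row of Ctr9, a subunit of the PAF1 transcription elongation complex. It was listed at 54453900 FPKM with the miR-93 mimic and 94648600 FPKM with the NT mimic (log2 ratio −0.80). FPKM divides by a length, and the length that the authors' software used for so short a locus is unknown here and need not equal its span. A value of this size is not read here as an amount of RNA. The next, XLOC_024494 (79 bases, chr7:98120951-98121030), had 263290 FPKM with the miR-93 mimic and 351837 FPKM with the NT mimic (log2 ratio −0.42). XLOC_001569 (93 bases, chr1:124253730-124253823) had 152246 FPKM with the miR-93 mimic and 148278 FPKM with the NT mimic (log2 ratio 0.04). These 3 loci lie far apart, and none had a gene name.

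Level followed length throughout the short range. Loci under 100 bases with status OK (17) had a median of 6387 FPKM, loci of 100 to under 120 bases (19) a median of 532, loci of 120 to under 150 bases (45) a median of 63.6, and loci of 150 to under 200 bases (92) a median of 13.3. The medians of the next longer rows were 5.21 FPKM from 200 to under 300 bases (180 rows) and 2.02 from 300 to under 500 bases (473 rows). Across the 173 short loci, Spearman's rho between length and level was −0.66. Across the 13557 rows of 2000 bases or more it was 0.03. These are descriptions across loci of the same pooled libraries, and length also enters the FPKM itself. The length by which the authors' software divided is unknown here and need not equal the span of a locus. Only rows with status OK entered, and a row needs enough reads for that status. The part of this filter and of the division by length in the levels was not tested. The higher levels of shorter loci are therefore not read here as larger amounts of RNA.

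**Figure D3:**
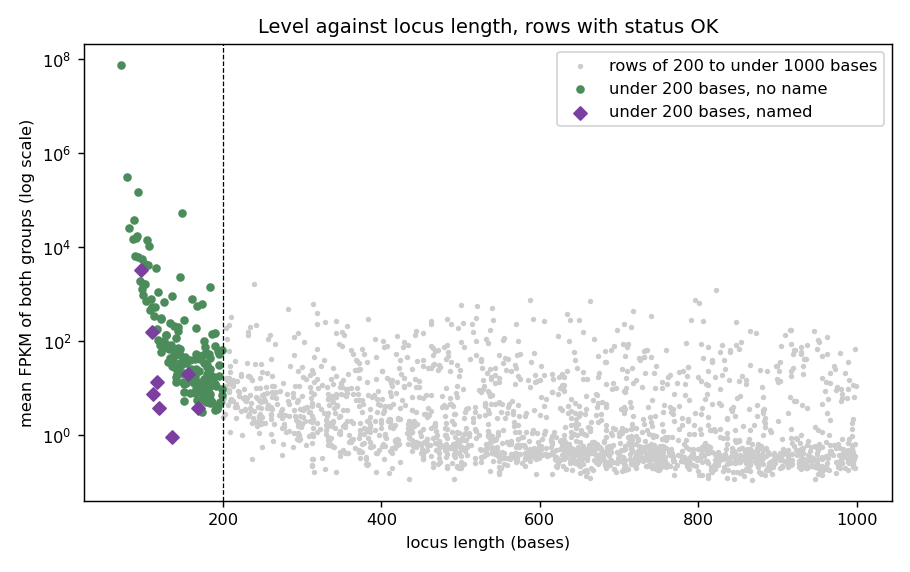
Mean FPKM of both groups (vertical axis, log scale) against locus length in bases (horizontal axis) for rows with status OK up to 1000 bases, with unnamed loci under 200 bases in green, named ones as purple diamonds and longer rows in grey. The dashed line marks 200 bases, and the level climbs as loci become shorter, with medians of 13.3 FPKM at 150 to under 200 bases and 6387 FPKM under 100 bases.

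The share of named rows with status OK was also set out by length. Of named loci under 100 bases 0.654% had the status OK, and 14.3%, 20% and 7.14% in the next 3 length classes. The share was 33.3% from 200 to under 300 bases, 36.3% from 300 to under 500, 16.5% from 500 to under 2000 and 57.7% at 2000 bases or more, so it did not follow length in order. Just under the limit of 200 bases, XLOC_007082 (199 bases) had 60.2 FPKM with the miR-93 mimic and 67.4 FPKM with the NT mimic. XLOC_016987 (199 bases) had 6.11 FPKM with the miR-93 mimic and 8.14 FPKM with the NT mimic, and XLOC_025890 (198 bases) had 9.01 with the miR-93 mimic and 9.95 FPKM with the NT mimic. Of 3 rows at 200 bases, XLOC_020493 had 4.83 FPKM with the miR-93 mimic and 5.24 FPKM with the NT mimic, and XLOC_024410 had 6.41 with the miR-93 mimic and 5.28 FPKM with the NT mimic. XLOC_025889 had 0.801 FPKM with the miR-93 mimic and 3.94 FPKM with the NT mimic, so in mean level each of the 3 rows at the limit was below each of the 3 under it.

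Between the groups, the short loci were more often lower than higher with the miR-93 mimic, by small amounts. Of the 173 with status OK 124 (71.7%) had a log2 ratio below 0 and 49 above 0, against 10891 of 16953 rows (64.2%) below 0 in the full table. Their median log2 ratio was −0.22 (quartiles −0.56 and 0.02), and that of all rows with status OK was −0.08 (quartiles −0.22 and 0.07). At least 2-fold lower were 19 short loci (11.0%), 17 unnamed stretches with Rny1 and Mir760, where 1.11% of all rows with status OK were. At least 2-fold higher were 2 short loci, Snora15 and Gm3787 (1.16%), where 1.93% of all rows were. The remaining 152 lay within 2-fold. Of the 8 named loci with status OK 5 had a log2 ratio above 0, with a median of 0.34. Centred on the median of all rows with status OK, the median of the short loci was −0.14 and 12 of them were at least 2-fold lower. The share of all rows at least 2-fold lower after centring is not given here. With no value per library, none of these differences could be set against a spread between replicates.

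**Figure D4:**
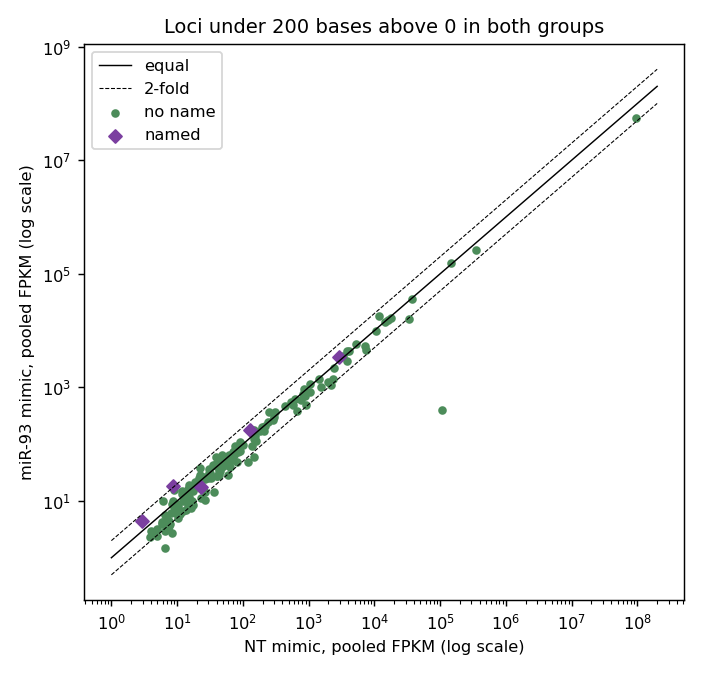
Pooled FPKM with the miR-93 mimic (vertical axis) against pooled FPKM with the NT mimic (horizontal axis), both on log scales, for the 170 loci under 200 bases above 0 in both groups, with unnamed loci in green and named ones as purple diamonds. The solid line marks equal values and the dashed lines 2-fold, and 1 unnamed locus at 403 FPKM with the miR-93 mimic and 104996 FPKM with the NT mimic stands far below the rest.

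The excess of lower ratios was also present in unnamed rows that are longer, at a smaller share. Of 3385 unnamed rows of 200 bases or more with status OK, 2.72% were at least 2-fold lower and 0.414% at least 2-fold higher with the miR-93 mimic. By length, the share of unnamed rows at least 2-fold lower was 6.25% under 100 bases, 13.3% from 100 to under 120, 11.4% from 120 to under 150 and 10% from 150 to under 200 bases. It was 6.47% from 200 to under 300 bases, 4.64% from 300 to under 500, 2.11% from 500 to under 2000 and 2.55% at 2000 bases or more. The median log2 ratio of all rows with status OK was −0.41 under 100 bases, −0.07 from 100 to under 120, −0.18 from 120 to under 150 and −0.26 from 150 to under 200 bases, so it did not follow length in order. As a share of their number, low loci more often had a 2-fold ratio. Of 36 short loci with a mean under 10 FPKM 8 were at least 2-fold lower and 1 higher, and of 137 at 10 FPKM or more 11 were lower and 1 higher. The part of counting noise in these shares was not tested, since the table holds no counts.

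**Figure D5:**
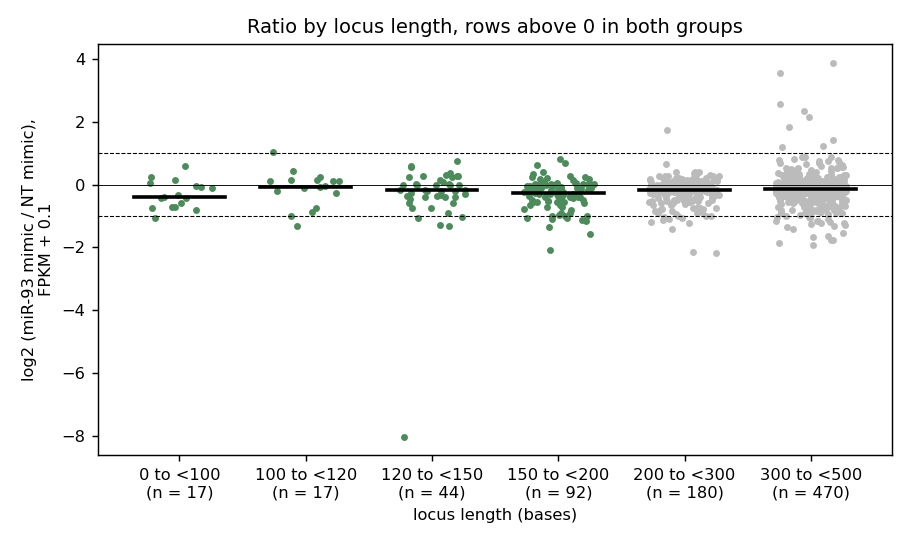
Log2 ratio of the miR-93 mimic over the NT mimic (vertical axis, FPKM + 0.1) for rows with status OK above 0 in both groups, by locus length in bases (horizontal axis), with loci under 200 bases in green, longer rows in grey and the medians of all rows with status OK as black bars. The dashed lines mark 2-fold, and a single short locus lies at −8.02.

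A single locus set the extreme. XLOC_008798 spans 148 bases on chromosome 15 (chr15:38168381-38168529) and had 403 FPKM with the miR-93 mimic, against 104996 FPKM with the NT mimic, a 260-fold lower value with the miR-93 mimic (log2 ratio −8.02). The NT mimic value is the one that stands apart from loci of like length. Among loci of 120 to under 150 bases the next highest NT mimic value was that of XLOC_024578, which had 2177 FPKM with the miR-93 mimic and 2428 FPKM with the NT mimic, whereas with the miR-93 mimic XLOC_008798 ranked 4 behind XLOC_024578, XLOC_017040 (933) and XLOC_018814 (600). Its nearest longer row, also unnamed and 4438 bases away, had 0.298 FPKM with the miR-93 mimic and 0.345 FPKM with the NT mimic. The pooled value does not show whether both NT mimic libraries were high.

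The other 16 loci at least 2-fold lower and above 0 in both groups had log2 ratios between −2.09 and −1.001, and 14 of them lay above −1.4. XLOC_010231 (chr16:31206110-31206301) had 1.48 FPKM with the miR-93 mimic and 6.62 FPKM with the NT mimic (log2 ratio −2.09), near Acap2, which had 10.8 FPKM with the miR-93 mimic and 10.7 FPKM with the NT mimic. XLOC_012412 (chr18:84829071-84829246) had 2.78 FPKM with the miR-93 mimic and 8.36 FPKM with the NT mimic (log2 ratio −1.56). A short locus 628 bases from it, XLOC_012411, had 24.96 FPKM with the miR-93 mimic and 32.2 FPKM with the NT mimic (log2 ratio −0.37). The nearest gene, the dipeptidase Cndp2, had 182 FPKM with the miR-93 mimic and 186 FPKM with the NT mimic.

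For the next 4 lower loci, the nearest longer rows had log2 ratios from −0.76 to 0.57. XLOC_004995 (chr11:114519472-114519637), 10219 bases from the ribosomal protein gene Rpl38, had 10.3 FPKM with the miR-93 mimic and 26.3 FPKM with the NT mimic (log2 ratio −1.34), and Rpl38 had 29.2 FPKM with the miR-93 mimic and 33.4 FPKM with the NT mimic. XLOC_002826 (chr10:4554293-4554435), 6910 bases from Fbxo5, which encodes an inhibitor of the anaphase-promoting complex, had 14.1 FPKM with the miR-93 mimic and 35.8 FPKM with the NT mimic (log2 ratio −1.33), and Fbxo5 had 0.598 FPKM with the miR-93 mimic and 0.668 FPKM with the NT mimic. On chromosome 7, XLOC_024562 had 59.3 FPKM with the miR-93 mimic and 149 FPKM with the NT mimic (log2 ratio −1.32). Its nearest longer row, unnamed and 13472 bases away, was lower as well, with 0.133 FPKM with the miR-93 mimic and 0.294 FPKM with the NT mimic (log2 ratio −0.76). At values this low the pseudocount of 0.1 FPKM understates the ratio. XLOC_024553 on the same chromosome had 48.7 FPKM with the miR-93 mimic and 119 FPKM with the NT mimic (log2 ratio −1.28), and Sbk1, 32586 bases away, had 5.94 FPKM with the miR-93 mimic and 3.97 FPKM with the NT mimic (log2 ratio 0.57). A neighbouring row is only the nearest in position, and the table does not tie a short locus to it.

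Among loci above 0 in both groups, the largest ratios above 0 were smaller in size than the largest below 0. After Snora15 the highest of these was XLOC_009317 (chr15:71140813-71141003) with 15.7 FPKM with the miR-93 mimic and 8.95 FPKM with the NT mimic (log2 ratio 0.80). XLOC_009290 (chr15:52090919-52091066) had 38.4 FPKM with the miR-93 mimic and 22.6 FPKM with the NT mimic (log2 ratio 0.76). It lies 91 bases from a longer unnamed row that had 5.59 FPKM with the miR-93 mimic and 4.51 FPKM with the NT mimic. XLOC_005906 and XLOC_005908, both on chromosome 12, had log2 ratios of 0.67 and 0.58. The second of these was also among the 10 highest loci, with 17781 FPKM with the miR-93 mimic and 11881 FPKM with the NT mimic.

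Of the 10 highest loci 5 had log2 ratios between −0.11 and 0.04, among them XLOC_001569 on chromosome 1. XLOC_017091 (chr3:86826962-86827050) had 36354 FPKM with the miR-93 mimic and 37391 FPKM with the NT mimic (log2 ratio −0.04). XLOC_027548 on chromosome 9 had 16451 FPKM with the miR-93 mimic and 17786 FPKM with the NT mimic (log2 ratio −0.11). XLOC_004963 on chromosome 11 had 15079 FPKM with the miR-93 mimic and 16023 FPKM with the NT mimic (log2 ratio −0.09), and XLOC_018736 on chromosome 4 had 14044 with the miR-93 mimic and 14505 FPKM with the NT mimic (log2 ratio −0.05). At least 2-fold lower were 2 of the 10, the chromosome 15 locus and XLOC_017055 (chr3:61962981-61963062), which had 16305 FPKM with the miR-93 mimic and 33960 FPKM with the NT mimic (log2 ratio −1.06).

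None of the 379 short loci lay inside a longer row or overlapped one. Mir93, Mir25 and Mir106b were listed with the coordinates of their host gene Mcm7. Genes listed in that way cannot be short loci, so this count is not read here as a result about position. The unnamed loci lay between 55 and 1241848 bases from the nearest longer row, with a median of 15717 bases, and for 41 of them that row had no name either. The 19 unnamed loci within 1 kb of a longer row had a median log2 ratio of −0.02, and 0 of them were at least 2-fold lower. The 51 at 1 to under 10 kb had a median of −0.37 with 9 at least 2-fold lower, the 51 at 10 to under 50 kb a median of −0.22 with 5 lower, and the 44 farther away a median of −0.19 with 3 lower. At least 2-fold lower were 1.11% of all rows with status OK and 2.72% of unnamed rows of 200 bases or more. Those shares were not split by distance, so the distance classes have no background of their own. Of the 19 closest ones 16 sat beside another unnamed stretch. XLOC_028917 on the X chromosome had 2897 FPKM with the miR-93 mimic and 3841 FPKM with the NT mimic, 197 bases from an unnamed row that had 26.8 FPKM with the miR-93 mimic and 25.6 FPKM with the NT mimic. XLOC_015761 and XLOC_015762 lie 269 bases apart on chromosome 2 and had 97.6 and 171 FPKM with the miR-93 mimic, against 99.4 and 213 with the NT mimic.

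The X chromosome held a larger share of the short loci with status OK than of all rows with that status. It carried 19 of the 173 (11.0%), against 3.23% of all rows with status OK and 3.69% of the 3385 unnamed rows of 200 bases or more. The 19 ranged in mean level from 3.63 to 3369 FPKM and had a median log2 ratio of −0.09, and 1 of them was at least 2-fold lower (XLOC_028906, 8.36 FPKM with the miR-93 mimic and 17.4 FPKM with the NT mimic). The 35 short microRNA loci of the same chromosome, all at 0, are separate from these 19.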

How the data were processed

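RNA from 4 libraries of mouse podocytes, 2 per group, was sequenced by the authors from poly-A RNA as paired ends. Reads, according to the submitters' notes and the methods of the study, were checked with FastQC and Trimmomatic and aligned to build mm9 with TopHat2 2.0.4, and transcripts were assembled and quantified with Cufflinks and Cuffdiff. Further versions were not given in the sources used here. Each FPKM was normalized and pooled per group by the authors before it was deposited. Groups come from the sample titles, and the label descriptions of all 4 libraries carry the same replicate number. The authors' fold changes, test statistics, p-values and q-values, and the 4 shorter of the 5 deposited tables, which hold selections with such columns, were not used.

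Length was locus end minus start, as the file gives them. Log2 ratios used a pseudocount of 0.1 FPKM. A row was called at 2-fold or more with status OK, with no test. Python 3.11.15 with pandas 2.3.3 and numpy 2.4.6 was used, and calls were checked on simulated data. The simulation left out rows low with the NT mimic and planted changes larger than the limit. It therefore does not speak for loci near the limit or at 0 in 1 group. Name classes, microRNA lists, markers and the rule for named loci (miR-17 clusters, the 10 highest levels, the 10 largest and 10 smallest ratios, loci at 0 in 1 group, the 3 highest of each name class, and the 3 rows on each side of the limit) were chosen with earlier results of these data known, as was the set of short loci. From the marker list 1 gene is not reported here. Sequences came from RefSeq and GENCODE M21 on build GRCm38 by symbol, and coordinates are those of the files alone. Sequences of unnamed loci were not used here, since the genome given is of another build. Alternatives were other pseudocounts, fold and length limits, an FPKM minimum, centring, and named rows alone. Added after seeing the data was the restriction to rows above 0 in both groups.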

Additional observations from a re-analysis of the deposited data

How the results depend on the processing

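No paired analysis was possible because the values are pooled per group, and leaving out a library in turn could not be run for the same reason. Of 36 alternative values 21 stayed within their limits. The 2 loci at least 2-fold higher became 1 with a pseudocount of 1, 1 with a mean of at least 1 FPKM and 1 with rows above 0 in both groups (chosen after seeing the data), and 7 at 1.5-fold. The 19 at least 2-fold lower became 41 at 1.5-fold, 10 under 150 bases, 30 under 300 bases, 12 after centring on the median of all rows with status OK, and 2 among named loci, while pseudocounts of 1 and 0.01 gave 13 and 21. Shares of all rows at 1.5-fold, after centring or with other pseudocounts are not given here. Those counts, higher or lower, thus have no background beside them. The median log2 ratio of −0.22 was −0.14 after centring and turned to 0.34 among named loci, which are 8. The 173 loci with status OK became 8 among named loci, 81 under 150 bases and 353 under 300 bases, and the median level of 39.2 FPKM was 10.4 among named loci. The length limits, the FPKM minimum and the restrictions to named loci or to rows above 0 in both groups change which rows are held, and the pseudocount, the fold limit and centring change the ratio or its limit over the same rows. Depth is unknown, so how many reads stand behind any short locus cannot be given, and the ratios of low loci have no error.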
